A study of Gallus gallus with 8 samples.

Results

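Heat shock proteins and other molecular chaperones were examined in the trachea of 42-day-old chickens (Gallus gallus). The genes were chosen by symbol from the deposited gene table: those beginning with HSPA, HSPB, HSPD, HSPE, HSPH, HSP25, HSP30, HSP90, DNAJA, DNAJB or DNAJC, and those with CCT or BAG followed by a digit. This gave 78 members among 26296 genes, all of them protein-coding, and no gene beginning with HSP30 was in the table. Of the members, 75 had at least 20 counts in 1 library and were measured, against 15268 measured genes in all. The 3 that were not measured were DNAJB8 with no count, DNAJC5B with 3 counts in the H2S library, against 1 in the control library, and DNAJC22 with 1 count in each.

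Chickens in the exposed group breathed air with added hydrogen sulfide (H2S), an irritant gas of poultry houses, held at 3.5 to 4.5 mg/kg over weeks 0 to 3 and at 19.5 to 20.5 mg/kg over weeks 4 to 6. Control chickens were kept in a chamber without added H2S. For mRNA, 1 H2S library and 1 control library were analysed, both carrying the replicate number 3, with total counts of 20839798 in the H2S library, against 18875586 in the control library. The labels give neither breed nor sex, and do not say whether a library came from 1 bird or from several. With 1 library per group, no test between conditions could be made and replicates cannot check any difference. Each ratio is the count in the H2S library over that in the control library after TMM scaling, which corrects for library size and composition. The 95% exact intervals beside the ratios cover counting error only, and so compare these libraries rather than H2S exposure with none. Levels are TMM-scaled CPM, the count relative to library size, which also grow with transcript length, so they are compared between libraries and not between genes.

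Chaperones bind proteins that are unfolded, newly made or damaged, and help them reach or regain their folded shape. HSP70 proteins hold short stretches of their clients in a cycle driven by ATP, in which J-domain proteins (DNAJ) deliver clients and HSP110 and BAG proteins exchange the nucleotide. HSP90 takes over clients at a later stage, small heat shock proteins keep damaged proteins from clumping, and the CCT ring folds actin and tubulin. When unfolded protein builds up in the cytosol, heat shock factors switch on many of these genes, whereas the endoplasmic reticulum and the mitochondrion hold their own chaperones under their own stress responses.

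A small set of mostly cytosolic chaperones was higher in the H2S library, and most other members were within 1.5-fold. HSP25 was 4.82-fold higher (interval 3.95 to 5.92), HSPA12B 3.90-fold higher (3.20 to 4.78) and HSPH1 2.35-fold higher (2.21 to 2.50). HSPA2, HSPA8, DNAJA1, HSP90AA1, BAG3 and DNAJC13 followed with ratios of 1.70 to 1.86. Among the 75 measured members, 3 had a ratio of 2 or more (4%), a share near that of all measured genes (4.71%). DNAJB13 was the 1 member at least 2-fold lower (1.33%), against 3.71% of all measured genes. At a limit of 1.5-fold, 9 members were higher (12%) and 5 lower (6.67%), against 10.6% and 9.31% of all measured genes. Intervals lay wholly above 1 for 30 members (40%) and wholly below 1 for 19 (25.3%), against 27.6% and 27.7% of all measured genes. Genes with many counts have narrower intervals, so these interval shares also depend on the counts of the genes. The median log2 ratio was 0.13 over the members and 0.00 over all measured genes. At both fold limits the share of members was thus near or below that of all genes.

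Differences near 1.5-fold were less frequent among genes with many counts, and the members higher in the H2S library lay mostly there. With at least 1000 counts in either library, a limit added after the values were seen, 7 of 39 members were at least 1.5-fold higher (17.9%), against 6.12% of 5031 such genes. At 2-fold the share of members was near that of such genes, at 1 of 39 (2.56%) against 2.54%. None of these 39 members was at least 1.5-fold lower, against 3.74% of such genes. Intervals lay wholly above 1 for 53.8% of these members and 38% of such genes, and wholly below 1 for 28.2% and 35.5%. Because the limit was added after the values were seen, these shares lend no separate support to the ratios. Of the 7 higher members, HSP90AA1, HSPA8, HSPA2, DNAJA1 and DNAJC13 overlap another gene in the GRCg7b assembly. All members together took 1.09% of the counts in the H2S library (exact interval 1.09% to 1.10%) and 0.853% in the control library (0.849% to 0.857%). HSP90AA1, HSPA8 and HSPA2 made up 74.4% of the difference in summed CPM. Summed over the other 75 members the level was 6448 CPM in the H2S library and 5742 CPM in the control library, a ratio of 1.12.

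**Figure D1:**
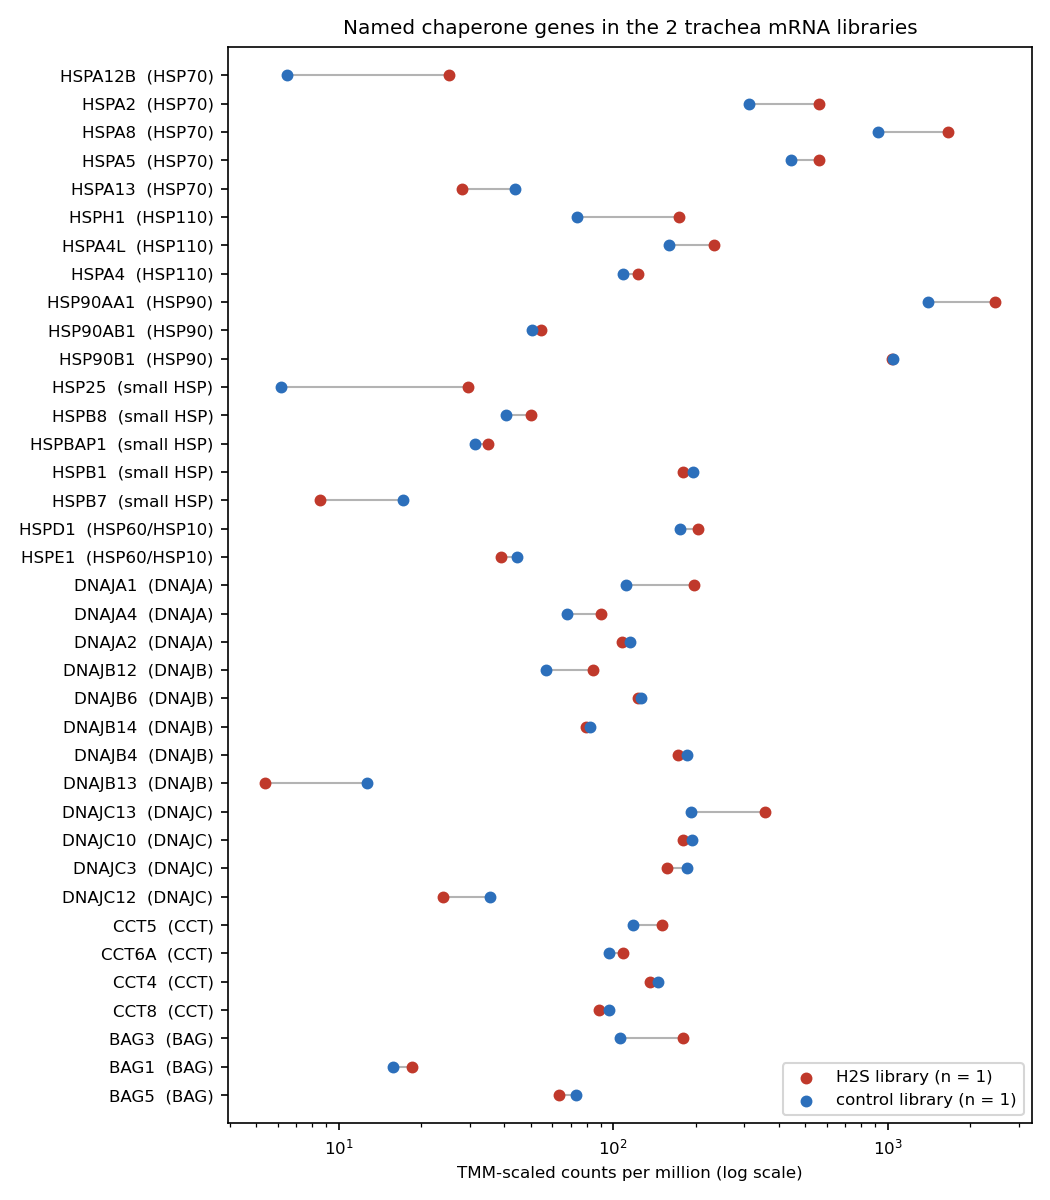
TMM-scaled CPM on a log axis for 37 members, ordered by chaperone class and, within a class, by ratio; red points are the H2S library, blue points the control library, and grey lines join the values of 1 gene. The red point lies furthest to the right of the blue point for HSP25 (29.6 CPM in H2S against 6.14 CPM in control) and HSPA12B, and furthest to the left for DNAJB13.

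HSP70 proteins are the central folding engine of the cell. HSPA8, the constitutive HSC70 of the cytosol, was at 1660 CPM in the H2S library and 925 CPM in the control library, from 33997 H2S and 17764 control counts. HSPA2, which RefSeq lists with the synonym HSP70 in chicken, was at 561 CPM in the H2S library and 312 CPM in the control library, from 11497 H2S and 5990 control counts. Their ratios were 1.79 (1.76 to 1.83) and 1.80 (1.74 to 1.86), and 93.7% and 93.8% of all measured genes had a lower ratio. The count of HSPA2 relative to HSPA8 was 0.338 in the H2S library, against 0.337 in the control library, so both differed by the same factor. HSPA2 overlaps PPP1R36 in GRCg7b, which had 177 H2S and 256 control counts. HSPA2 and HSPA8 are similar in sequence, and how the authors' counting divided reads between them is not given in the sources used here.

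HSP70 members of the organelles were closer to 1 or below it. HSPA5 (BiP), the HSP70 of the endoplasmic reticulum, was at 562 CPM in the H2S library and 444 CPM in the control library, a ratio of 1.27 (1.23 to 1.30). HSPA9 (mortalin), the mitochondrial HSP70, was at 132 CPM in the H2S library and 148 CPM in the control library, a ratio of 0.890 (0.844 to 0.939). HSPA13, an HSP70 relative of the endoplasmic reticulum, was lowest in its class at 28.1 CPM in the H2S library and 43.9 CPM in the control library, a ratio of 0.640 (0.574 to 0.712). HSPA14, which works at the ribosome, had a ratio of 1.10 with an interval that held 1 (0.967 to 1.25).

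HSPA12B, a distant HSP70 relative known from endothelial cells, stood apart from the rest of its class. It had 515 counts in the H2S library, against 124 in the control library, or 25.1 CPM for H2S and 6.46 CPM for control. Its close relative HSPA12A had 780 H2S and 776 control counts, a ratio of 0.943 (0.852 to 1.04). The 14 measured endothelial markers, a list added after the values were seen, lay within 1.5-fold, as did 12235 of all 15268 measured genes. These markers ran from 0.774 for CLDN5 to 1.40 for ERG. VWF, PECAM1 and PLVAP had ratios of 0.808, 1.17 and 1.32. Summed over the 14 markers, the level was 1394 CPM in the H2S library and 1443 CPM in the control library. None of the 15 listed markers was at 0. The part of endothelial cells in the value of HSPA12B was not tested.

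HSP110 proteins exchange the nucleotide of HSP70 and help it to pull clumped proteins apart. HSPH1, the stress-inducible member, was at 174 CPM in the H2S library and 74.1 CPM in the control library, from 3563 H2S and 1423 control counts. HSPA4L was at 233 CPM in the H2S library and 160 CPM in the control library, a ratio of 1.45 (1.39 to 1.52). HSPA4 was at 123 CPM in the H2S library and 109 CPM in the control library, a ratio of 1.13 (1.07 to 1.20). The class had the highest median log2 ratio of the 10 classes (0.54), over 3 genes.

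HSP90 genes divided by form. HSP90AA1, the stress-inducible form of the cytosol, had 50565 counts in the H2S library, against 26934 in the control library, or 2469 CPM for H2S and 1402 CPM for control. Its ratio was 1.76 (1.73 to 1.79). HSP90AB1, the constitutive cytosolic form, was at 54.7 CPM in the H2S library and 50.4 CPM in the control library, a ratio of 1.09 whose interval held 1 (0.996 to 1.18). HSP90B1 (GRP94), the form of the endoplasmic reticulum, was level at 1036 CPM in the H2S library and 1043 CPM in the control library (ratio 0.993, 0.974 to 1.01). Both cytosolic forms are similar in sequence, so a part of their counts could have been exchanged.

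Small heat shock proteins went both ways. HSP25, a small heat shock protein of birds that RefSeq now names HSPB9, had 606 counts in the H2S library, against 118 in the control library, or 29.6 CPM for H2S and 6.14 CPM for control. Its ratio was the highest of all members, and 99.1% of all measured genes had a lower one. HSPB1, the most widely expressed small heat shock protein in mammals, was at 180 CPM in the H2S library and 195 CPM in the control library (ratio 0.920, 0.879 to 0.963). HSPB8, which works in a complex with BAG3, was at 50.0 CPM in the H2S library and 40.6 CPM in the control library, a ratio of 1.23 (1.12 to 1.35). HSPB2, a partner of HSPB3 in muscle, had 112 counts in the H2S library, against 73 in the control library, a ratio of 1.44 (1.06 to 1.96).

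HSPB7 and HSPB3 were lower and had small counts. HSPB7, a small heat shock protein of heart and skeletal muscle, had 175 counts in the H2S library, against 328 in the control library, and its ratio lay just above 0.5 (0.414 to 0.603), short of the limit for 2-fold lower. HSPB3 had 164 H2S and 231 control counts, a ratio of 0.666 (0.542 to 0.817). HSPB3 overlaps the long non-coding LOC107051941 in the GRCg7b assembly, with 163 H2S and 181 control counts. Skeletal muscle markers, by contrast, were mostly higher in the H2S library. Of 29 measured markers, 24 had ratios above 1, against 7616 of all 15268 measured genes. Summed over the 29, the level was 23295 CPM in the H2S library and 16651 CPM in the control library, with none at 0. Among them ACTA1, skeletal muscle actin, had a ratio of 1.73 and TNNC1, the troponin C of slow muscle, 2.72, while SMPX, a small muscle protein, was lowest at 0.635. MYOZ1, NEB and MYOT had ratios of 2.10, 1.21 and 0.755. The part of muscle in the values of HSPB2, HSPB3 and HSPB7 was not tested, and in bulk tissue fewer cells of a type and less RNA per cell cannot be told apart.

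Some genes share the HSPB start without being small heat shock proteins. HSPB11, which works as the transport protein IFT25 in cilia, had 100 counts in the H2S library, against 160 in the control library, a ratio of 0.586 (0.452 to 0.757). HSPBAP1, a protein that binds HSPB1, and HSPBP1, an exchange factor of HSP70, had ratios of 1.11 and 1.21 with intervals that held 1.

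**Figure D2:**
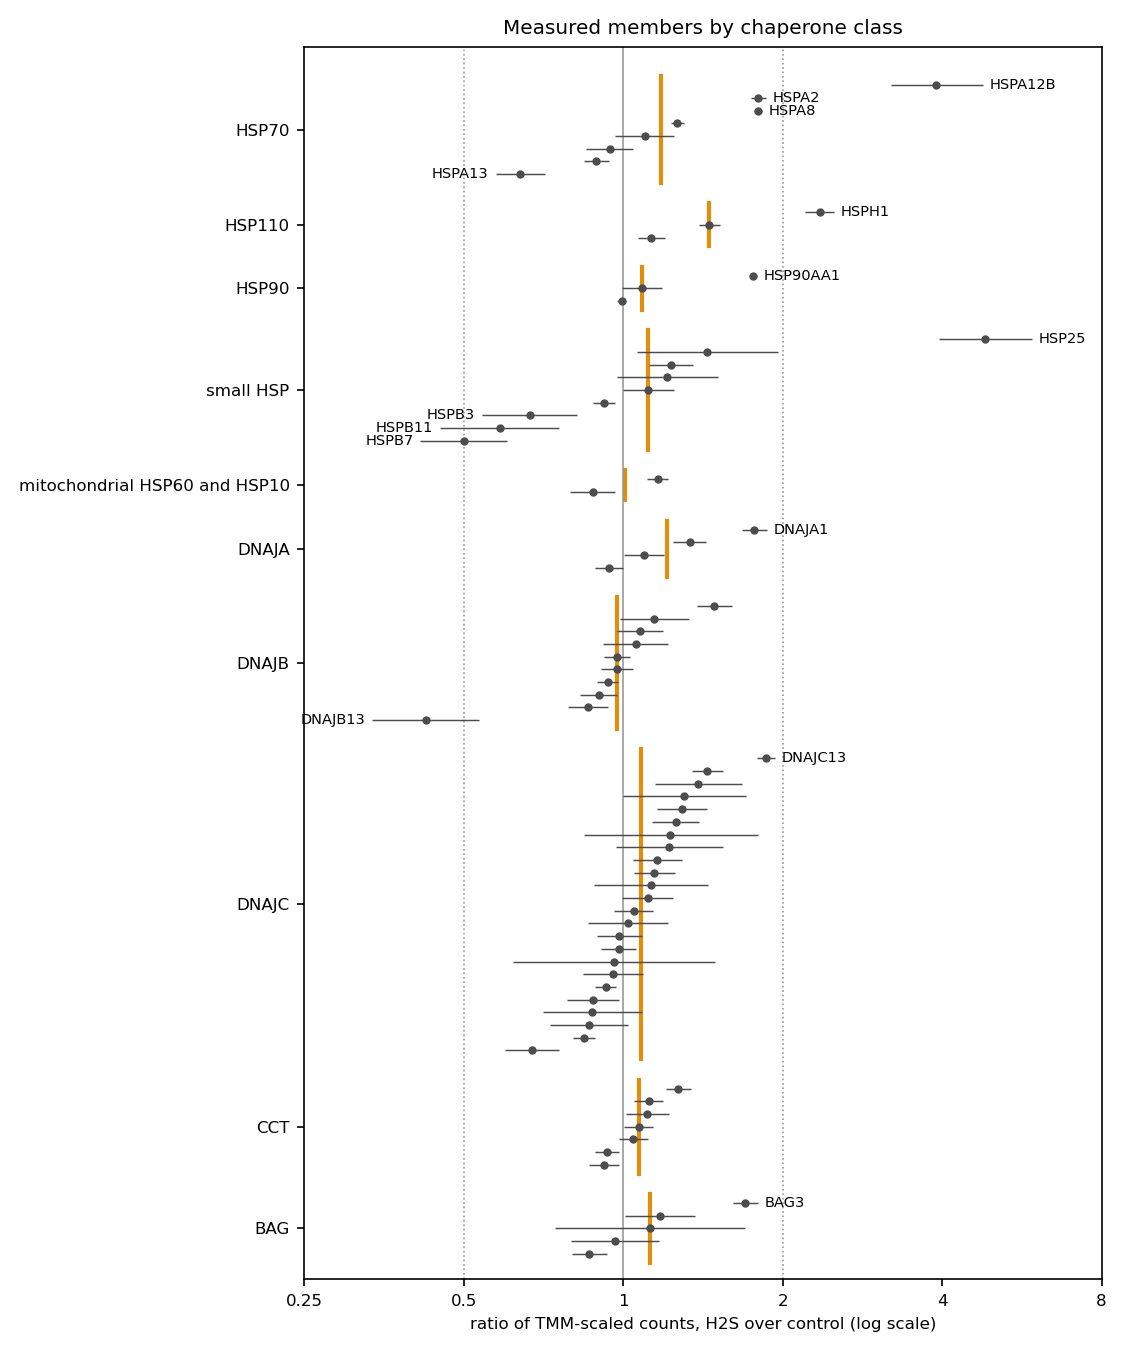
Ratio of TMM-scaled counts, H2S over control, on a log axis for the 75 measured members by class; points are genes, horizontal bars their 95% exact counting intervals, orange lines the class medians, and dotted lines mark ratios of 0.5 and 2. Labelled genes are past 1.5-fold, 9 of them to the right and 5 to the left, and each class also holds genes close to 1.

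J-domain proteins of type A pair with cytosolic HSP70. DNAJA1, the main type A partner, was at 196 CPM in the H2S library and 111 CPM in the control library, a ratio of 1.77 (1.68 to 1.86). DNAJA4 was at 90.6 CPM in the H2S library and 67.8 CPM in the control library, a ratio of 1.34 (1.24 to 1.44). DNAJA2, a close relative of DNAJA1, was at 108 CPM in the H2S library and 115 CPM in the control library, a ratio of 0.940 (0.886 to 0.998). DNAJA3, the type A protein of mitochondria, had a ratio of 1.09 (1.003 to 1.19). DNAJA1 lies on chromosome Z, whose dosage differs between male and female birds. Its 619 measured genes had a median log2 ratio of -0.03, against 0.00 on the other chromosomes, and the other 4 members on Z had ratios of 0.666 (HSPB3) to 1.16 (DNAJC21). DNAJA1 overlaps SMU1, whose ratio was 0.961 (0.908 to 1.02).

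Type B proteins were centred just below 1, with a median log2 ratio of -0.04 over 10 measured genes. DNAJB1 (HSP40), the J-domain protein best known from the heat shock response, had 421 counts in the H2S library, against 374 in the control library, a ratio of 1.06 whose interval held 1 (0.916 to 1.22). A further identifier of the table that GRCg7b also calls DNAJB1, LOC107049075, had 94 H2S and 58 control counts, a ratio of 1.52 (1.08 to 2.15). Which locus the table calls DNAJB1 could not be settled, so its value rests on an unsettled identity. DNAJB12, an endoplasmic reticulum membrane protein, was highest of the class at 84.2 CPM in the H2S library and 56.6 CPM in the control library (ratio 1.49, 1.38 to 1.60), while its relative DNAJB14 had a ratio of 0.974. DNAJB6, which holds back protein aggregation, and DNAJB4 had ratios of 0.975 and 0.935. DNAJB2, rich in neurons, and DNAJB5 had ratios of 1.15 and 1.08 with intervals that held 1.

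DNAJB13, a radial spoke protein of the ciliary axoneme, had 110 counts in the H2S library, against 243 in the control library, a ratio of 0.425 (0.336 to 0.534). Together with HSPB11 it is a member tied to cilia rather than to folding. Of 21 measured markers of multiciliated cells, 17 also had ratios below 1, against 7652 of all 15268 measured genes. Summed over the 21, the level was 1962 CPM in the H2S library and 2316 CPM in the control library, with none at 0. The lowest of those markers were WDR63 at 0.598 and WDR16 at 0.602, so DNAJB13 lay below all of them. DNAH5 had a ratio of 0.701, DNAH9 1.09, and MNS1 and CCNO 1.10 and 1.68 with intervals that held 1. The part of ciliated cells in the value of DNAJB13 was not tested.

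DNAJC proteins are the most varied class. Of all 15268 measured genes, 12235 lay within 1.5-fold, and in this class 23 of 24 did. The exception was DNAJC13, an endosomal J-domain protein that recruits HSC70 to membranes, with 7319 counts in the H2S library, against 3689 in the control library. Its level was 357 CPM in the H2S library and 192 CPM in the control library, a ratio of 1.86 (1.79 to 1.94). It overlaps CPNE4, which had 11 H2S and 50 control counts. DNAJC7, a partner of both HSP70 and HSP90, was next at 110 CPM in the H2S library and 76.1 CPM in the control library (ratio 1.44, 1.35 to 1.54). DNAJC12, which assists the hydroxylases of aromatic amino acids, was lowest at 24.0 CPM in the H2S library and 35.7 CPM in the control library (0.674, 0.599 to 0.757). DNAJC27, DNAJC6 (auxilin, which uncoats clathrin vesicles) and DNAJC18 had ratios of 1.38, 1.30 and 1.29, from 279, 139 and 785 counts in the H2S library. DNAJC5, the cysteine string protein of secretory vesicles, was level at 22.4 CPM in the H2S library and 23.4 CPM in the control library. DNAJC19 and DNAJC15, of the mitochondrial import motor, had ratios of 1.11 and 1.02 with intervals that held 1. DNAJC2, which works with HSPA14 at the ribosome, had a ratio of 1.26 (1.14 to 1.39).

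The CCT ring and the mitochondrial folding chamber were close to level. CCT subunits had ratios from 0.922 for CCT8 to 1.27 for CCT5, with a median log2 ratio of 0.10 over 7 genes. CCT4 and CCT6A, subunits with many counts, had ratios of 0.933 and 1.12, and CCT2, CCT3 and CCT7 had 1.05, 1.11 and 1.07. CCT5 was at 151 CPM in the H2S library and 118 CPM in the control library. TCP1, the ring subunit that its symbol leaves out of the set, was at 194 CPM in the H2S library and 177 CPM in the control library (ratio 1.10, 1.05 to 1.15). HSPD1 (HSP60), the mitochondrial chamber, was at 204 CPM in the H2S library and 176 CPM in the control library, a ratio of 1.16 (1.11 to 1.22). HSPE1 (HSP10), its lid, was at 39.0 CPM in the H2S library and 44.5 CPM in the control library, a ratio of 0.876 (0.795 to 0.966). HSPD1 and HSPE1 are neighbours that share a promoter region in mammals.

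BAG proteins release clients from HSP70. BAG3, which heat shock factor induces and which steers clients of HSP70 and HSPB8 to autophagy, was at 179 CPM in the H2S library and 106 CPM in the control library, from 3673 H2S and 2028 control counts. Its ratio was 1.70 (1.61 to 1.79), the highest of the class. BAG5 was at 63.2 CPM in the H2S library and 73.2 CPM in the control library, a ratio of 0.863 (0.7997 to 0.931). BAG1 had a ratio of 1.17 (1.01 to 1.37), and BAG2 and BAG4 had 1.12 and 0.964 with intervals that held 1.

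**Figure D3:**
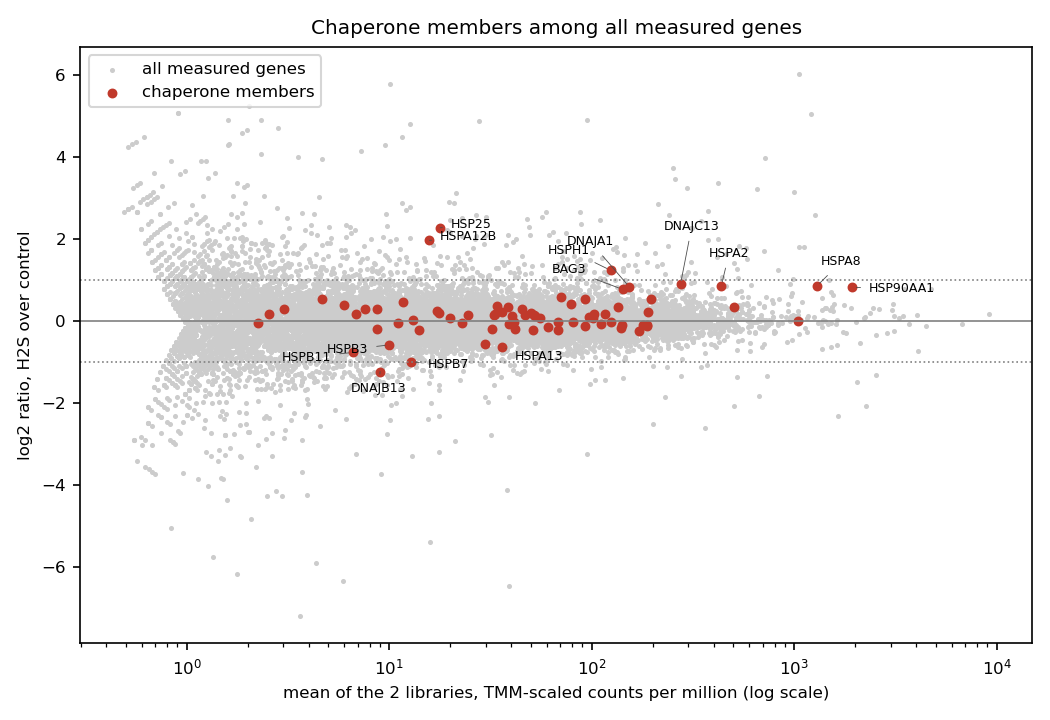
Log2 ratio, H2S over control, against the mean TMM-scaled CPM of both libraries (log axis) for 15268 measured genes in grey and the 75 measured members in red; dotted lines mark 2-fold. Labelled members are past 1.5-fold, and 7 of the 9 higher ones reached 1000 counts in either library.

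The members were also grouped by compartment, after the values were seen. Of 7 members in the lumen of the endoplasmic reticulum, 6 had ratios below 1, against 7652 of all 15268 measured genes. HSPA5 alone was above 1, and the median log2 ratio of the 7 was -0.15. Among the 6 was HSP90B1, which was level and turned just above 1 with upper-quartile scaling (1.002), and the summed level of all 7 was 2067 CPM in the H2S library and 2030 CPM in the control library, a ratio of 1.02. The others below 1 included DNAJB9 (0.898), DNAJB11 (0.859), DNAJC3 (0.843) and DNAJC10 (0.927), J-domain partners of HSPA5. The 8 mitochondrial members had a median log2 ratio of 0.00 and ratios of 0.860 to 1.16. The other 60 measured members had a median of 0.16. Membrane proteins of the endoplasmic reticulum were counted among these 60, including DNAJB12 (1.49), DNAJC1 (1.14) and DNAJB14 (0.974). The values by compartment depend on this assignment. These 60, out of 75 measured members, included all 9 past the 1.5-fold limit on the higher side, against 1611 of all 15268 measured genes (10.6%). They also included 4 of the 5 members past that limit on the lower side, against 1422 of all 15268 (9.31%). Most members are in this group, so few past the limit could lie elsewhere. Whether the ratios depend on compartment was not tested.

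Dividing the count ratio of a gene pair in the H2S library by that in the control library removes the scaling and the transcript lengths. This was done for 15 pairs, chosen after the values were seen and mostly with a higher member on top, so the values restate the ratios above in another form and their direction was fixed by the choice. HSPH1 counts relative to HSPA4 were 1.42 in the H2S library, against 0.681 in the control library, a 2.08-fold difference (1.91 to 2.26, Wald interval for counting error). HSP25 relative to HSPB1 differed 5.24-fold (4.28 to 6.41), and DNAJA1 relative to DNAJA2 1.88-fold (1.74 to 2.04). HSP90AA1 relative to HSP90AB1 differed 1.62-fold (1.49 to 1.77), and relative to HSP90B1 1.77-fold (1.73 to 1.82). HSPA8 relative to HSPA9 differed 2.02-fold (1.91 to 2.13). For HSPA2 relative to HSPA8 the value was 1.003 (0.967 to 1.04).

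**Figure D4:**
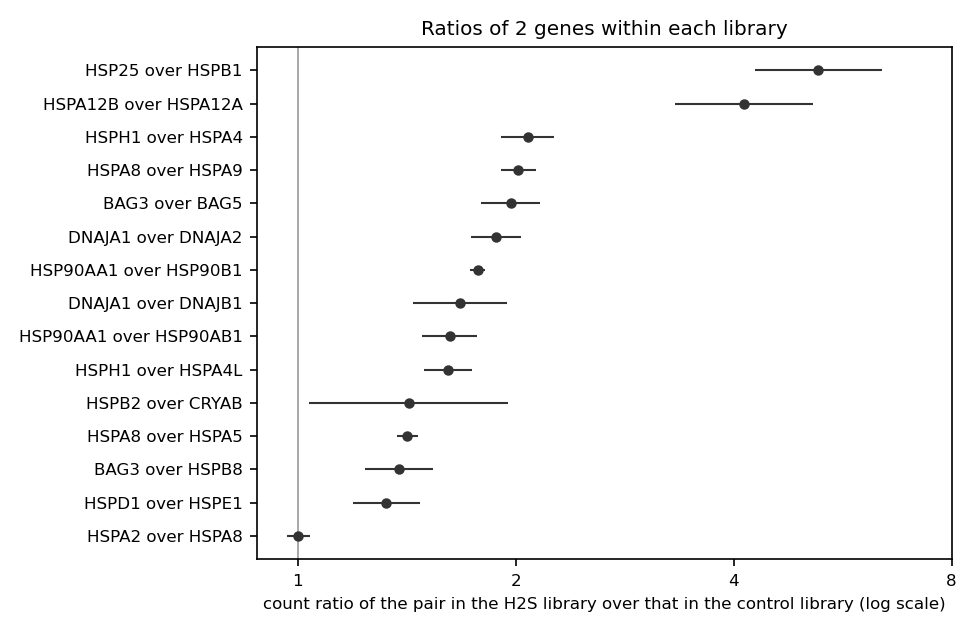
Count ratio of 2 genes in the H2S library divided by the same ratio in the control library, on a log axis, for 15 pairs; points are values and bars 95% Wald intervals for counting error. HSP25 over HSPB1 lies furthest right at 5.24, and HSPA2 over HSPA8 at 1.003.

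In mRNA level, the measured heat shock factors HSF2, HSF3 and HSF5 did not differ by 1.5-fold, and their activity was not measured. HSF3, a heat shock factor of birds, was at 99.2 CPM in the H2S library and 112 CPM in the control library (ratio 0.883, 0.831 to 0.939), and HSF2 had a ratio of 1.04 (0.966 to 1.12). HSF1 is not analysed here, because no gene of that symbol was among those counted. HSF4, with 8 H2S and 4 control counts, was not measured. HSBP1, which binds heat shock factor, had a ratio of 0.812 (0.712 to 0.927). HSF5 and HSBP1L1 had ratios of 0.863 and 1.12 with intervals that held 1. All 5 measured genes of this list, HSBP1 and HSBP1L1 among them, lay within 1.5-fold, as did 12235 of all 15268 measured genes.

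Most other genes that respond to heat shock factor lay within 1.5-fold. Of 19 measured, 1 was at least 1.5-fold higher and 2 were at least 1.5-fold lower, against 10.6% and 9.31% of all measured genes. Intervals lay wholly above 1 for 9 and wholly below 1 for 3, against 27.6% and 27.7% of all measured genes. These interval shares also depend on the counts of the genes. The median log2 ratio was 0.08. Some genes are in more than 1 list, so the results of the lists are not separate observations. FKBP4, AHSA2 and ST13 are also listed as co-chaperones, and SERPINH1 as an endoplasmic reticulum folding gene. TXNDC5 and MZB1 are in the lists for endoplasmic reticulum folding and for plasma cells. JMJD6, a nuclear hydroxylase, was highest at 77.0 CPM in the H2S library and 50.2 CPM in the control library (ratio 1.53, 1.41 to 1.66). RGS2, a brake on G protein signalling, and HMOX1, haem oxygenase, were lowest at 0.584 (0.524 to 0.650) and 0.618 (0.509 to 0.749). SERPINH1 (HSP47), the collagen chaperone, was at 1010 CPM in the H2S library and 958 CPM in the control library, a ratio of 1.05. IER5, an immediate early gene, and TRA2A, a splicing regulator, had ratios of 1.39 (1.04 to 1.87) and 1.22 (1.17 to 1.27). CRYAB, a small heat shock protein outside the symbol rule, had 596 counts in the H2S library, against 553 in the control library (ratio 1.01).

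Co-chaperones of HSP90 and HSP70 had a median log2 ratio of 0.03 over 30 measured genes. Of these, 29 lay within 1.5-fold, against 12235 of all 15268 measured genes. FKBP4, an immunophilin that binds HSP90, was at 156 CPM in the H2S library and 123 CPM in the control library (ratio 1.27), and AHSA2, related to the HSP90 activator AHSA1, had a ratio of 1.28 (1.15 to 1.43). CDC37, which brings kinases to HSP90, had a ratio of 2.52 from 35 H2S and 13 control counts. NUDCD1 and GRPEL1, the exchange factor of HSPA9, were lowest at 0.818 and 0.843, and ST13 and HYOU1, with many counts, were near level at 0.983 and 1.02. Prefoldin and tubulin-folding genes had a median of 0.04, with VBP1 highest from 24 H2S and 10 control counts and TBCA lowest (0.746). PDRG1 had a ratio of 1.47, TBCE 0.762 and URI1 0.987. Mitochondrial proteases and import genes had a median of -0.04, from PMPCB (0.715) to PAM16 (1.74, from 89 H2S and 48 control counts). HSCB, CLPX and YME1L1 had ratios of 0.718, 1.23 and 0.892.

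Genes for folding in the endoplasmic reticulum had a median log2 ratio of -0.10 over 33 measured genes. Of these, 30 lay within 1.5-fold, against 12235 of all 15268 measured genes. FKBP9, a prolyl isomerase of that compartment, was highest at 798 CPM in the H2S library and 434 CPM in the control library (ratio 1.84, 1.79 to 1.89). FKBP14, another prolyl isomerase, and TXNDC5, a disulfide isomerase rich in plasma cells, were lowest at 0.526 and 0.569. MZB1, a folding factor of antibody-secreting cells, had a ratio of 1.47 (1.16 to 1.86). Genes of the unfolded protein response had a median of -0.20, with 14 of 22 below 1, against 7652 of all 15268 measured genes. ATF3, a stress-induced transcription factor, was highest at 417 CPM in the H2S library and 183 CPM in the control library (2.28, 2.19 to 2.37). CHAC1, a glutathione-degrading enzyme induced by that response, was lowest at 8.94 CPM in the H2S library and 26.4 CPM in the control library (0.338, 0.284 to 0.401). EDEM1, of the degradation pathway, had a ratio of 0.657 and CREB3L2, a transcription factor, 0.918. DDIT3 (CHOP) had 1.36 with an interval that held 1, from 45 H2S and 31 control counts.

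Genes listed as markers of plasma cells, which secrete antibody through the endoplasmic reticulum, went both ways, and more were lower than higher. Of 12 measured markers, 8 had ratios below 1, against 7652 of all 15268 measured genes. Summed over the 12, the level was 1863 CPM in the H2S library and 6939 CPM in the control library, with none at 0. IGJ, the joining chain of antibody, and the light chain gene IGLL1 were lowest at 0.202 and 0.235. Without these genes the sum over the other 10 markers was 441 CPM in the H2S library and 504 CPM in the control library, a ratio of 0.874. Among those 10, IRF4, TNFRSF13B, TXNDC5, PRDM1, XBP1 and FKBP11 had ratios below 1, at 0.432, 0.495, 0.569, 0.612, 0.802 and 0.861. CD79B, MZB1, SDC1 and POU2AF1 had ratios above 1, at 1.60, 1.47, 1.28 and 1.11. SDC1 alone held 199 CPM of the sum over the 10 in the H2S library and 156 CPM in the control library. The part of plasma cells in the values of HSPA13, DNAJB9, DNAJB11, DNAJC3 and DNAJC10 was not tested. Cartilage markers were higher for 14 of 14 genes, against 7616 of all 15268 measured genes. Summed over the 14, the level was 27697 CPM in the H2S library and 21420 CPM in the control library, with none at 0. EPYC and MATN3 were highest at 2.75 and 2.63, and COL2A1 and COL9A1, the most counted, were lowest at 1.12 and 1.11. Their part, and that of skeletal muscle, in the values of HSP25, HSPH1, HSPA2, HSPA8, HSP90AA1, DNAJA1 and BAG3 was not tested.

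**Figure D5:**
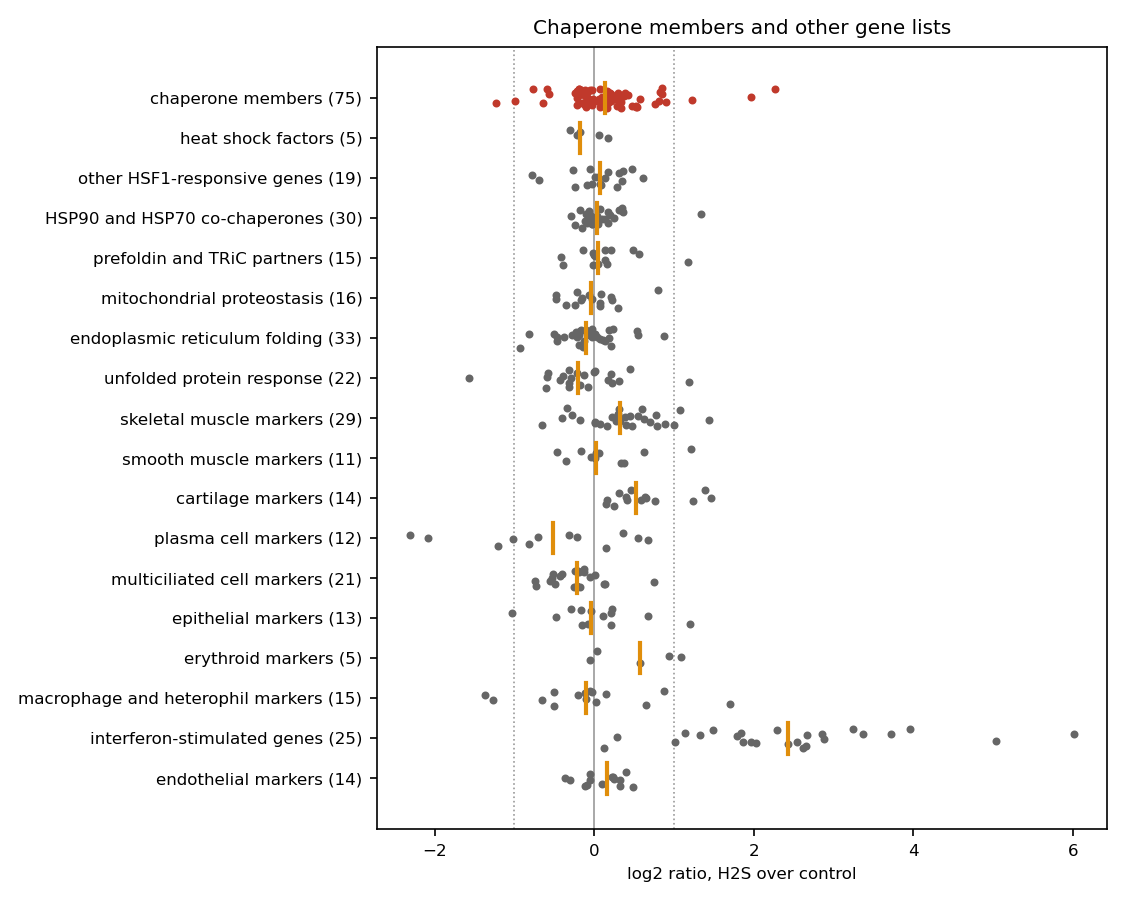
Log2 ratio, H2S over control, for the measured chaperone members in red and the measured genes of 17 other lists in grey, with the number of genes in brackets; points are genes, orange lines medians and dotted lines 2-fold. The chaperone median is 0.13, and the interferon-stimulated genes lie far to the right with a median of 2.43.

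Interferon-stimulated genes, the antiviral programme, were the most different of the lists. Of 25 measured, 23 were at least 2-fold higher in the H2S library, against 4.71% of all measured genes. None of the chaperones past 1.5-fold reached the median ratio of that list, 5.38, and HSP25 came closest. Erythroid genes were few, with HBE at 0 in both libraries and HBAA, a globin, at 475 counts in the H2S library, against 209 in the control library. SLC4A1, HBAD and CA2 had ratios of 1.91, 0.960 and 1.02. The interferon list ran from UBA7 (1.09) and IRF8 (1.22) to IFIT5 (32.9) and RSAD2 (64.6). Macrophage and heterophil markers had a median of -0.10, with TIMD4 (3.24) and S100A9 (1.84) highest. MPO (0.388, 0.180 to 0.784) and MARCO (0.414) were lowest, and LYG2 and SPI1 were at 0.930 and 1.11. MPO had only 12 H2S and 29 control counts, and S100A9 had 53 H2S and 27 control counts. Epithelial markers had a median of -0.04, with KRT14 (2.29) and CLDN1 (1.60) highest, TP63 (0.490) and KRT19 (0.718) lowest and EPCAM at 0.819. Smooth muscle markers had a median of 0.02, with LMOD1 (2.32) and SYNPO2 (1.54) highest, PGM5 (0.727) and ACTG2 (0.780) lowest, and DES and MYLK at 1.04 and 1.02.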

How the data were processed

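Gene counts came from 1 H2S and 1 control trachea mRNA library. The deposited table gives raw counts per gene and the gene's type. The submitters' processing notes name HISAT2 for these libraries, while version, build, annotation, counter and strand setting are not given in sources used here, so overlapping and antisense genes may hold each other's reads. The small RNA libraries of the series were not used here.

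Counts were divided by TMM effective library sizes (edgeR 4.0.16, R 4.3.3), with median-of-ratios sizes from DESeq2 1.42.0 as an alternative. Ratios are H2S over control, and their 95% intervals are exact binomial ones (Clopper-Pearson, scipy 1.17.1) given the sum of both counts. A gene was measured from 20 counts in either library. In a simulation of H2S against control with 15268 genes, 95.8% of intervals covered the simulated ratio, and 100% of 200 simulated 4-fold changes passed the 2-fold limit. The simulated counts held counting error only, with no variation between birds. The simulation thus checks how the intervals were computed and not the comparison of exposed with control chickens. RefSeq's GRCg7b gene table was used for names, neighbours and chromosome, and held 76 of the 78 members. No coordinates are printed, because the files' build is not given. A planned search of member promoters for heat shock and endoplasmic reticulum stress elements was not run, and no sequences are shown.

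The members and lists were chosen with earlier results of these data known. Named genes were members past 2-fold, the highest, the lowest and the 3 with the most counts of each class, HSP25 and HSPH1, and the 2 highest, 2 lowest and 2 most counted genes of each list. Others were named for their role or after their values were seen.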

Additional observations from a re-analysis of the deposited data

How the results depend on the processing

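No paired analysis was possible because each group has 1 mRNA library, and for the same reason no library could be left out. Total-count, median-of-ratios and upper-quartile scaling shifted all log2 ratios by -0.05, 0.01 and 0.01. Of 94 values recomputed for the counts and medians, 89 stayed within a set limit. The limit was 1.5 times the count or, for medians, the counting interval of the median gene. Where the number of genes was even, it ran over the intervals of both middle genes, which is a wider limit. Each scaling shifts every log2 ratio by the same small amount, and the count limits changed few members. Most of these values could therefore hardly move. Of 111 ratios recomputed for named members, 106 stayed inside their counting interval. With total counts, HSP90AA1 (1.70), HSPA8 (1.73), HSPA2 (1.74), HSPA5 (1.22) and HSP90B1 (0.959) fell below theirs. The median of HSPD1 and HSPE1 turned to -0.04 with total counts, against 0.01 with TMM, and still lay within its limit, which spanned the intervals of both genes. With total counts, 2 members were at least 2-fold lower, HSPB7 joining DNAJB13. Without HSPBAP1, HSPB11, HSPBP1 and DNAJB13, which share only the start of a symbol or work elsewhere, 0 members were at least 2-fold lower and 3 at least 1.5-fold lower. Leaving out members that overlap another gene in GRCg7b, a setting added after the data were seen, removed 34 measured members and kept 41. Of these 41, 4 were at least 1.5-fold higher and 3 lower, against 10.6% and 9.31% of all measured genes, which were not filtered for overlap. HSP90AA1, HSPA8, HSPA2, DNAJA1 and DNAJC13 were removed from the higher ones. HSPA12B has no GRCg7b entry, so its overlap was not checked. HSP25, HSPA12B and HSPH1 were at least 2-fold higher under each of these scalings. Depth limits members under 100 counts: DNAJC17, with 45 H2S and 44 control counts, had an interval of 0.619 to 1.49.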
